A study of Homo sapiens with 6 samples.

Results

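The FAM83 family, 8 genes named FAM83A to FAM83H, was described in WM164 melanoma cells that carried either an HDAC8 expression vector or an empty vector. Its members were taken from the gene table by symbol, and all 8 were found among its 60504 genes. The family was chosen by measured values of these libraries, since the difference between HDAC8 and EV libraries was known for its members when it was picked. Levels and differences of the members are therefore given as a description, with errors and without a test.

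FAM83 proteins share a conserved N-terminal domain, DUF1669, which binds isoforms of the protein kinase CK1, and each member is thought to bring CK1 to its own place in the cell. FAM83G, also called PAWS1, binds SMAD1 and takes part in BMP and WNT signalling. FAM83D, also called CHICA, carries CK1 alpha to the mitotic spindle. FAM83H is involved in keratin organisation and is mutated in an inherited enamel defect, amelogenesis imperfecta, and FAM83A and FAM83B are known from EGFR and RAS signalling in carcinomas.

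WM164 is an established human melanoma line with the BRAF V600E mutation, which both groups carry. Total RNA was sequenced from 3 libraries of cells with the empty expression vector (EV) and 3 libraries of cells with the HDAC8 expression vector. In each group they were numbered as replicates 1 to 3. HDAC8 is a class I histone deacetylase, and the comparison asked how expressing it changed the transcripts of these cells. Both groups were transfected with plasmid and kept under hygromycin, and whether each was a clone or a pool is not stated. Nothing in the labels says that the replicates were separate cultures, so errors measure the spread between these libraries only.

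Total counts ran from 34741083 to 42041462 per library and overlapped between the groups. Mitochondrially encoded transcripts took 9.66% to 12.8% of the counts in EV libraries and 4.46% to 7.94% in HDAC8 libraries. HDAC8 itself, the gene of the vector, had 422.3 normalized counts in EV and 468.0 in HDAC8 libraries (log2 fold change 0.15, SE 0.28, DESeq2 adjusted p = 0.856), and its groups overlapped, so its transcript did not check the labels. A normalized count is a gene's count divided by the size factor of its library. Every direction given is that of libraries labelled HDAC8 relative to libraries labelled EV. The melanocyte markers SOX10, MITF, PMEL, TYR, DCT and MLANA were present in every library. EPCAM (epithelium), CDH5 (endothelium) and DCN (fibroblasts) were at 0 in all 6, but other markers of these cell types had reads. Mean normalized counts in EV and HDAC8 libraries were 547.0 and 1066.6 for KLF5, 109.7 and 142.8 for VWF and 2462.1 and 1629.4 for LUM. Of the 6 melanocyte markers 4 were called lower in HDAC8 libraries, beside 5.44% of all genes with an adjusted p. MLANA fell from 8664.7 to 303.1 normalized counts. The summed level of the 6 markers was 243681 to 327472 in EV and 136367 to 181341 in HDAC8 libraries. The part of this in the differences of the FAM83 genes was not tested.

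Fewer cells with a transcript and less of it per cell cannot be told apart in bulk RNA. Of the 8 members, FAM83D, FAM83G and FAM83H had a mean of at least 50 normalized counts and at least 10 counts in every library. FAM83A, FAM83C, FAM83E and FAM83F had few counts, and FAM83B had none. Among the 7 members with a total of at least 10 counts, 6 received an adjusted p, and FAM83G and FAM83H were past both thresholds of a call (DESeq2 adjusted p under 0.05 and a log2 fold change past 0.58 in either direction), both in the higher direction. Of all 21021 genes with an adjusted p, 11.0% were called, 5.57% higher and 5.44% lower. The groups did not overlap, with HDAC8 above EV, for FAM83E, FAM83G and FAM83H, and for 11.3% of all 26162 genes fitted. Since these differences were among the values that chose the family, nothing is read from the counts of members.

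**Figure D1:**
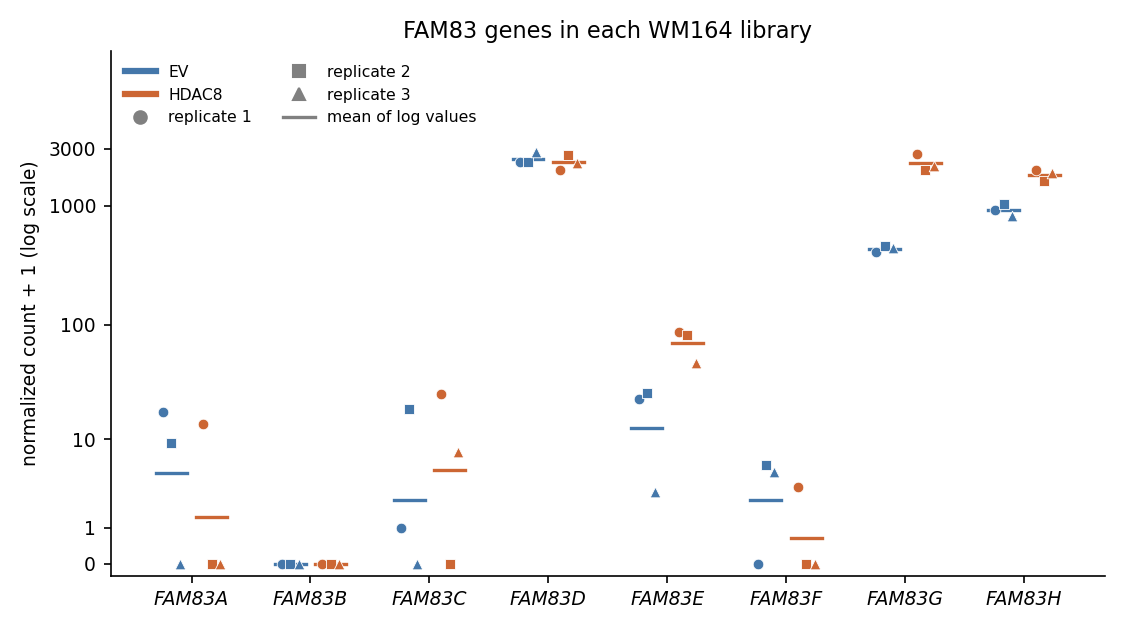
Normalized counts plus 1 of the 8 FAM83 genes on a log axis, with EV libraries in blue, HDAC8 libraries in orange, a marker shape for each replicate number and a bar at the mean of the log values. FAM83G and FAM83H lie higher in all 3 HDAC8 libraries, FAM83D overlaps between the groups, and FAM83A, FAM83B, FAM83C and FAM83F lie at or near 0 in most libraries.

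FAM83G differed most among the members with more than a few counts. In the cell state lists the study used, it stands in an undifferentiated, neural crest-like list, and FAM83H in a melanocytic one. From a separate assay of WM164 cells, the study also reported increased histone acetylation at the FAM83G promoter with HDAC8. The gene (ENSG00000188522) lies on the minus strand of chr17:18968789-19004764 (GRCh38, GENCODE release 44). The 250 bases before its transcription start (RefSeq, GRCh38.p14, chr17:19004765-19005014, minus strand) are shown because FAM83G carries the largest difference of the well-measured members. Those of FAM83E (chr19:48615077-48615326, minus strand) are shown beside it, as the other member with a RefSeq promoter entry whose groups did not overlap. Capitals mark matches to the motifs searched on both strands: AP-1 (TGANTCA), CRE (TGACGTCA), E-box (CACGTG), TEAD (GGAATG) and GC-box (GGGCGG, or CCGCCC on the other strand).
FAM83G: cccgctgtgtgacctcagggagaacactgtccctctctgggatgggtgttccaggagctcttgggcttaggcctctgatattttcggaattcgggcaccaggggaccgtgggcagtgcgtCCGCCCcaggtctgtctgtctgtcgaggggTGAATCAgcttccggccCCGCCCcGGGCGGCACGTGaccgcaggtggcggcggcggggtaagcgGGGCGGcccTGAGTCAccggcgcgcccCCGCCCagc
FAM83E: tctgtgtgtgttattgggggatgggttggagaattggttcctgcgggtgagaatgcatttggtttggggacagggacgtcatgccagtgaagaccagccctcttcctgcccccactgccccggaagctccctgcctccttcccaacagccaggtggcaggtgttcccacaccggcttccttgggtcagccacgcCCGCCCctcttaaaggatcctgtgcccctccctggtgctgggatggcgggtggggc

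The FAM83G window held 2 AP-1 matches, centred at -97 and -24 from the start, an E-box match at -67 and 5 GC-box matches, of which the one at -73 runs without a gap into the E-box. In the FAM83E window a single GC-box match, at -53, was found and none of the other 4 motifs. RefSeq entries were found for 4 of the 8 members, and those of FAM83B and FAM83C held GC-box matches alone, 1 and 2 of them. Among 35116 promoter windows of 300 bases, AP-1 was found in 7.71%, the E-box in 7.26%, the GC-box in 45%, TEAD in 14% and CRE in 1.85%. GC content was 72.3% in the FAM83G window and 63.7% in that of FAM83E, where the median window had 58.7%. The motifs were picked after the FAM83G promoter had been seen, and a match describes letters, not a bound site.

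**Figure D2:**
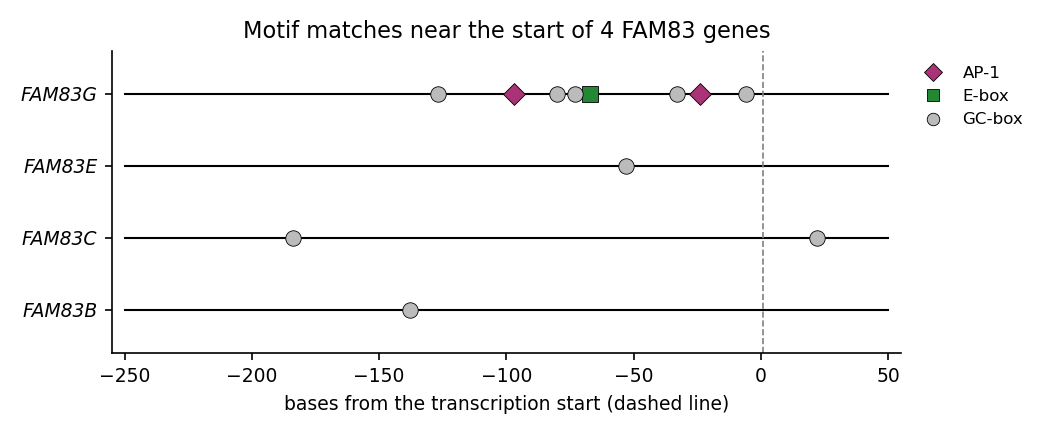
Motif matches in the windows from 250 bases before to 50 bases after the start of the 4 FAM83 genes with a RefSeq promoter entry, by distance from the start in bases. AP-1 (diamonds) and E-box (square) matches appear in FAM83G, at -97, -24 and -67, and GC-box matches (circles) in all 4.

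FAM83G had 405.8, 462.3 and 445.3 normalized counts in EV libraries 1 to 3 and 2710.6, 2008.4 and 2142.0 in HDAC8 libraries 1 to 3. The lowest HDAC8 library was thus far above the highest EV library, and the EV libraries lay close together. The means were 437.8 ± 29.0 (SD, n = 3) and 2287.0 ± 372.9 (SD, n = 3), a 5.22-fold difference (95% interval 3.95 to 6.90) and a log2 fold change of 2.39 (SE 0.21). Of the 21021 genes with an adjusted p, 3.67% had a log2 fold change at least as high. The log2 fold change was 2.24 without HDAC8 replicate 1, which held the highest value, and lay between 2.24 and 2.47 in 13 alternatives.

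FAM83H (ENSG00000180921, chr8:143723933-143738234, minus strand) was the second member past the thresholds. Its normalized counts were 916.5, 1039.5 and 827.5 in EV and 1996.6, 1620.2 and 1877.4 in HDAC8 libraries. Every HDAC8 library was higher than every EV library, by less than for FAM83G. The means were 927.8 ± 106.4 and 1831.4 ± 192.4 (SD, n = 3 each), a 1.97-fold difference (95% interval 1.51 to 2.58) and a log2 fold change of 0.98 (SE 0.20), which 12.1% of the genes reached or passed. In 13 alternatives it lay between 0.90 and 1.07. Both FAM83G and FAM83H stayed past the thresholds in all 13. These refits use the libraries whose values chose the family, so they describe the processing and are no further support.

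FAM83D (ENSG00000101447, chr20:38926312-38953106, plus strand), the spindle member, overlapped between the groups. Its normalized counts were 2323.7, 2330.2 and 2833.2 in EV and 1999.2, 2675.1 and 2306.4 in HDAC8 libraries. The means were 2495.7 ± 292.3 and 2326.9 ± 338.4 (SD, n = 3 each), with a log2 fold change of -0.10 (SE 0.18, 95% interval -0.46 to 0.25). The interval holds folds from 0.729 to 1.19, so a small difference either way was not detectable at this spread.

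FAM83E (ENSG00000105523, chr19:48599961-48615076, minus strand) was measured by few reads. Its counts were 22, 28 and 3 in EV and 101, 80 and 43 in HDAC8 libraries, which are 23.1, 26.2 and 3.0 and 86.4, 81.9 and 46.8 normalized counts. The groups did not overlap, but EV replicate 3 was far below the other EV libraries and HDAC8 replicate 3 was the lowest of its group. The means were 17.4 ± 12.6 and 71.7 ± 21.7 (SD, n = 3 each), and the log2 fold change of 2.04 had an SE of 0.95 (95% interval 0.18 to 3.91). It was not past the thresholds, here or in 12 alternatives, and was 1.54 without EV replicate 3.

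The remaining members were at or near the counting floor. FAM83A (ENSG00000147689, chr8:123178960-123210079, plus strand) had counts of 17, 10 and 0 in EV and 16, 0 and 0 in HDAC8 libraries. FAM83C (ENSG00000125998, chr20:35285731-35292425, minus strand) had 1, 20 and 0 in EV and 30, 0 and 7 in HDAC8 libraries. In both, each group had libraries with 0 counts and the groups overlapped. The 95% intervals of the log2 fold change, -6.31 to 4.35 for FAM83A and -3.81 to 5.32 for FAM83C, leave the direction unknown. FAM83F (ENSG00000133477, chr22:39994954-40043534, plus strand), reported to act in WNT signalling, had expected counts of 0, 6.09 and 5 in EV and 4, 0 and 0 in HDAC8 libraries and no adjusted p. FAM83B (ENSG00000168143, chr6:54846771-54945099, plus strand), which binds EGFR, had 0 counts in all 6 libraries, which allows up to 3 counts per library, or 2.57 to 3.27 normalized counts.

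To set the members beside each other, normalized counts were divided by the length of all exons of a gene together, in kb. In EV libraries FAM83D had the highest level, 1008 normalized counts per kb (939 to 1145 over the 3 libraries), then FAM83H with 149.2 (133 to 167) and FAM83G with 56.1 (52.0 to 59.3). These ranges did not overlap. FAM83E followed with 4.21, FAM83C with 2.08, FAM83A with 1.43, FAM83F with 0.216 and FAM83B with 0, and the libraries of the last 5 overlapped between neighbours in that order.

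In HDAC8 libraries FAM83D was still highest, with 940 normalized counts per kb (808 to 1081). FAM83H with 294.4 (260.5 to 321) and FAM83G with 293.3 (257.5 to 347.6) overlapped and came next. Divided by the longest transcript instead, FAM83G had 437.6 (384 to 519) and FAM83H 298.7 (264 to 326), so the order of these 2 genes depended on which length was taken. FAM83E was at 17.4, FAM83C at 3.5, FAM83A at 0.722 and FAM83F at 0.0696 normalized counts per kb of exon.

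Within a library, the ratio of FAM83G to FAM83H per kb was 0.353, 0.355 and 0.429 in EV and 1.08, 0.989 and 0.91 in HDAC8 libraries. The ratio of FAM83G to FAM83D was 0.0554, 0.063 and 0.0499 in EV and 0.43, 0.238 and 0.295 in HDAC8 libraries. Neither ratio depends on the scaling between libraries, and neither overlapped between the groups. FAM83G made up 4.54%, 5.02% and 4.27% of the family's level per kb in EV and 23.1%, 15.9% and 18% in HDAC8 libraries. The share of FAM83D was 81.9%, 79.7% and 85.7% in EV and 53.6%, 66.8% and 61.2% in HDAC8 libraries. HDAC8 replicate 1 stood apart in the makeup, with the largest share of FAM83G and the smallest of FAM83D, and also had the lowest share of mitochondrial transcripts, 4.46%, whose part in this was not tested.

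**Figure D3:**
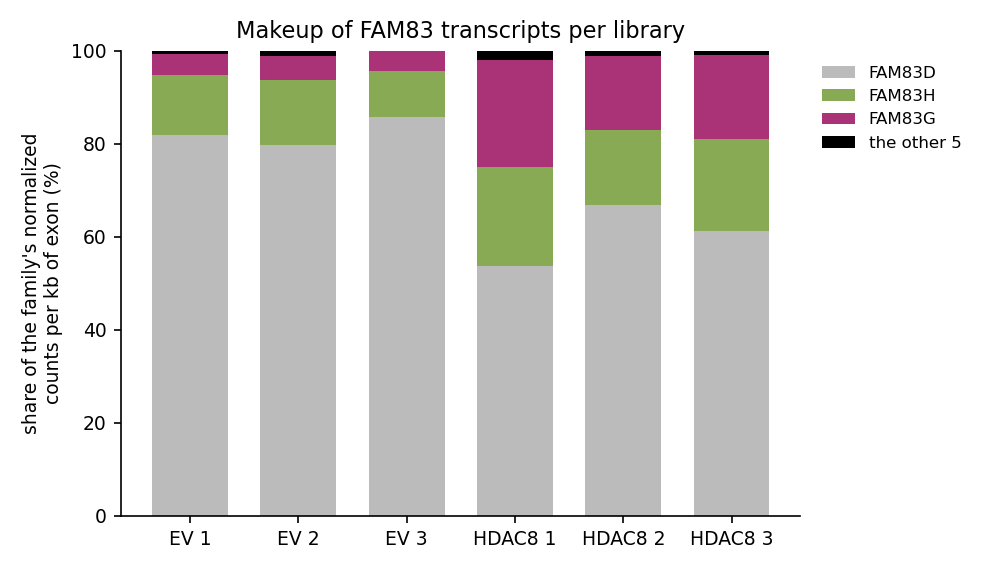
Share of each FAM83 gene in the family's normalized counts per kb of exon, in percent, for each of the 6 libraries. FAM83G (purple) takes 4.27% to 5.02% in EV and 15.9% to 23.1% in HDAC8 libraries, and the other 5 (black) are thin slices.

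Levels per kb were ranked among genes with a total of at least 10 counts and a length in GENCODE. FAM83G had a middle place among them in EV and an upper place in HDAC8 libraries. It was at or above 53.3%, 56.8% and 55.2% of 25708 genes in EV libraries and 84.2%, 79.0% and 80.1% in HDAC8 libraries. FAM83H was at 68.3% to 72.0% in EV and 79.2% to 82.9% in HDAC8 libraries, FAM83E was at no more than 27.5% in EV and 42.8% in HDAC8 libraries, and FAM83D lay between 93.8% and 96.1% throughout. The median log2 fold change over the 3 members with a mean of at least 50 was 0.98, which is the value of FAM83H. Over the 7 members fitted it was 0.75, the value of FAM83C, whose direction is unknown. The median over the 26162 genes fitted was -0.00. Since the differences of the members chose the family, nothing is read from their medians.

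The kinases that FAM83 proteins bind were examined next. None of the 6 CK1 isoform genes with enough counts was called by DESeq2, edgeR's quasi-likelihood test or limma-voom. Over all genes with an adjusted p, DESeq2 called 11.0%. An unadjusted p under 0.05 was found for 1 of the 6, and nothing is read from counts of so few genes. CSNK1A1, which encodes CK1 alpha, had a mean of 8035.6 normalized counts in EV and 7462.1 in HDAC8 libraries (log2 fold change -0.11, DESeq2 adjusted p = 0.752). CSNK1D had 6880.4, 7652.7 and 5867.0 in EV and 10440.6, 7614.4 and 8841.4 in HDAC8 libraries (0.40, adjusted p = 0.0849). CSNK1E had means of 4111.0 and 5038.5 (0.29, adjusted p = 0.232), and its groups did not overlap, with HDAC8 above EV. The gamma isoforms had log2 fold changes of 0.01 (CSNK1G1), 0.25 (CSNK1G2) and -0.36 (CSNK1G3), with adjusted p = 0.989, 0.56 and 0.301, and the groups of CSNK1G3 did not overlap, with HDAC8 below EV. CSNK1A1L was at 0 in all libraries. The CK1 genes were thus expressed in both groups, and no difference in them was detected at 3 libraries per group.

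Of 21 genes of BMP and WNT signalling, the pathways in which FAM83G acts, 1 was called higher and 4 lower. The shares over all genes with an adjusted p were 5.57% higher and 5.44% lower. The median log2 fold change of the list was -0.19. SMAD1, whose protein FAM83G binds, had means of 394.6 and 473.2 normalized counts (0.26, DESeq2 adjusted p = 0.682). SMAD9, a related BMP effector, fell from 1227.9, 1188.9 and 1099.4 in EV to 315.5, 618.6 and 666.4 in HDAC8 libraries (-1.14, SE 0.29, adjusted p = 0.00136). BMPR1A, a type I BMP receptor, fell from a mean of 3195.0 to 2108.7 (-0.60, adjusted p = 0.015), a call lost in 5 of 13 alternatives.

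ID1 and ID3, which BMP signalling induces, were lower as well. ID1 had means of 1036.5 and 571.3 (-0.86, DESeq2 adjusted p = 0.0082), a call lost without EV replicate 1 (adjusted p = 0.0628), EV replicate 2 (0.0648) or HDAC8 replicate 3 (0.0842). ID3 had means of 2519.1 and 1491.6 (-0.76, adjusted p = 6.6e-04) and stayed called in all 13 alternatives. ID2 had means of 353.3 and 202.1 (-0.81, adjusted p = 0.181). Neither SMAD6 nor SMAD7 of the same list was called. SMAD6 had means of 217.6 and 127.6 (-0.77, DESeq2 adjusted p = 0.398). SMAD7 had 686.0 and 723.8 (0.08, adjusted p = 0.938), and its groups overlapped. NKD1, a WNT target that dampens the pathway, rose from 1102.1, 1272.0 and 1019.6 to 3339.1, 2853.3 and 2993.5 normalized counts (1.44, SE 0.18, adjusted p = 3.55e-14). AXIN2, another WNT target, had means of 1130.2 and 1145.5 (0.02, adjusted p = 0.98). NEDD9 passed the p threshold but not the fold minimum (0.53, adjusted p = 0.00421). The 3 most highly expressed genes of the list, CTNNB1 (-0.36, adjusted p = 0.0572), LEF1 (0.13, adjusted p = 0.687) and BMPR2 (-0.19, adjusted p = 0.613), were not called.

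For FAM83D, none of the 6 spindle genes listed with it was called by DESeq2, edgeR or limma-voom, and 2 had an unadjusted p under 0.05. The share DESeq2 called over all genes with an adjusted p was 11.0%, so nothing is read from the count. HMMR, which encodes the spindle protein that FAM83D joins, had means of 1977.3 and 2378.3 normalized counts (0.27, DESeq2 adjusted p = 0.603). TPX2 (-0.09, adjusted p = 0.814), DYNLL1 (-0.32, adjusted p = 0.206) and AURKA (-0.32, adjusted p = 0.177) had the highest counts of the list.

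Of the 7 genes listed for EGFR, RAS and PI3K signalling with FAM83A and FAM83B, 2 were called, both higher, while the 2 members themselves were at or near 0. The share called higher over all genes with an adjusted p was 5.57%. EGFR rose from 84.9, 36.4 and 39.4 normalized counts in EV to 364.3, 358.5 and 375.7 in HDAC8 libraries (log2 fold change 2.78, SE 0.46, DESeq2 adjusted p = 7.84e-08), with no overlap. PLD1, a phospholipase reported to bind FAM83B, rose from a mean of 1153.9 to 1921.2 (0.74, adjusted p = 0.00413), a call lost without HDAC8 replicate 2 (0.57, adjusted p = 0.0505). AKT1 (0.13, adjusted p = 0.755) and PIK3R1 (-0.17, adjusted p = 0.734), among the 3 genes with the highest counts of the list, were not called.

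For FAM83H, none of the 7 keratin genes with enough counts was called by DESeq2, edgeR or limma-voom, and 2 had an unadjusted p under 0.05. DESeq2 called 11.0% of all genes with an adjusted p, and nothing is read from the count of keratins. KRT18 had 1837.5, 2258.5 and 1702.3 normalized counts in EV and 3288.6, 2462.1 and 2662.5 in HDAC8 libraries (0.54, DESeq2 adjusted p = 0.037), which is under the fold minimum. Its partner KRT8 had 295.3, 421.9 and 290.4 in EV and 713.6, 559.2 and 497.7 in HDAC8 libraries (0.81, adjusted p = 0.0612). Neither overlapped between the groups. KRT10 had means of 179.5 and 147.6 (-0.28, adjusted p = 0.834), and 5 of the 8 keratins listed, such as KRT5, KRT14 and KRT17, had a mean under 50.

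**Figure D4:**
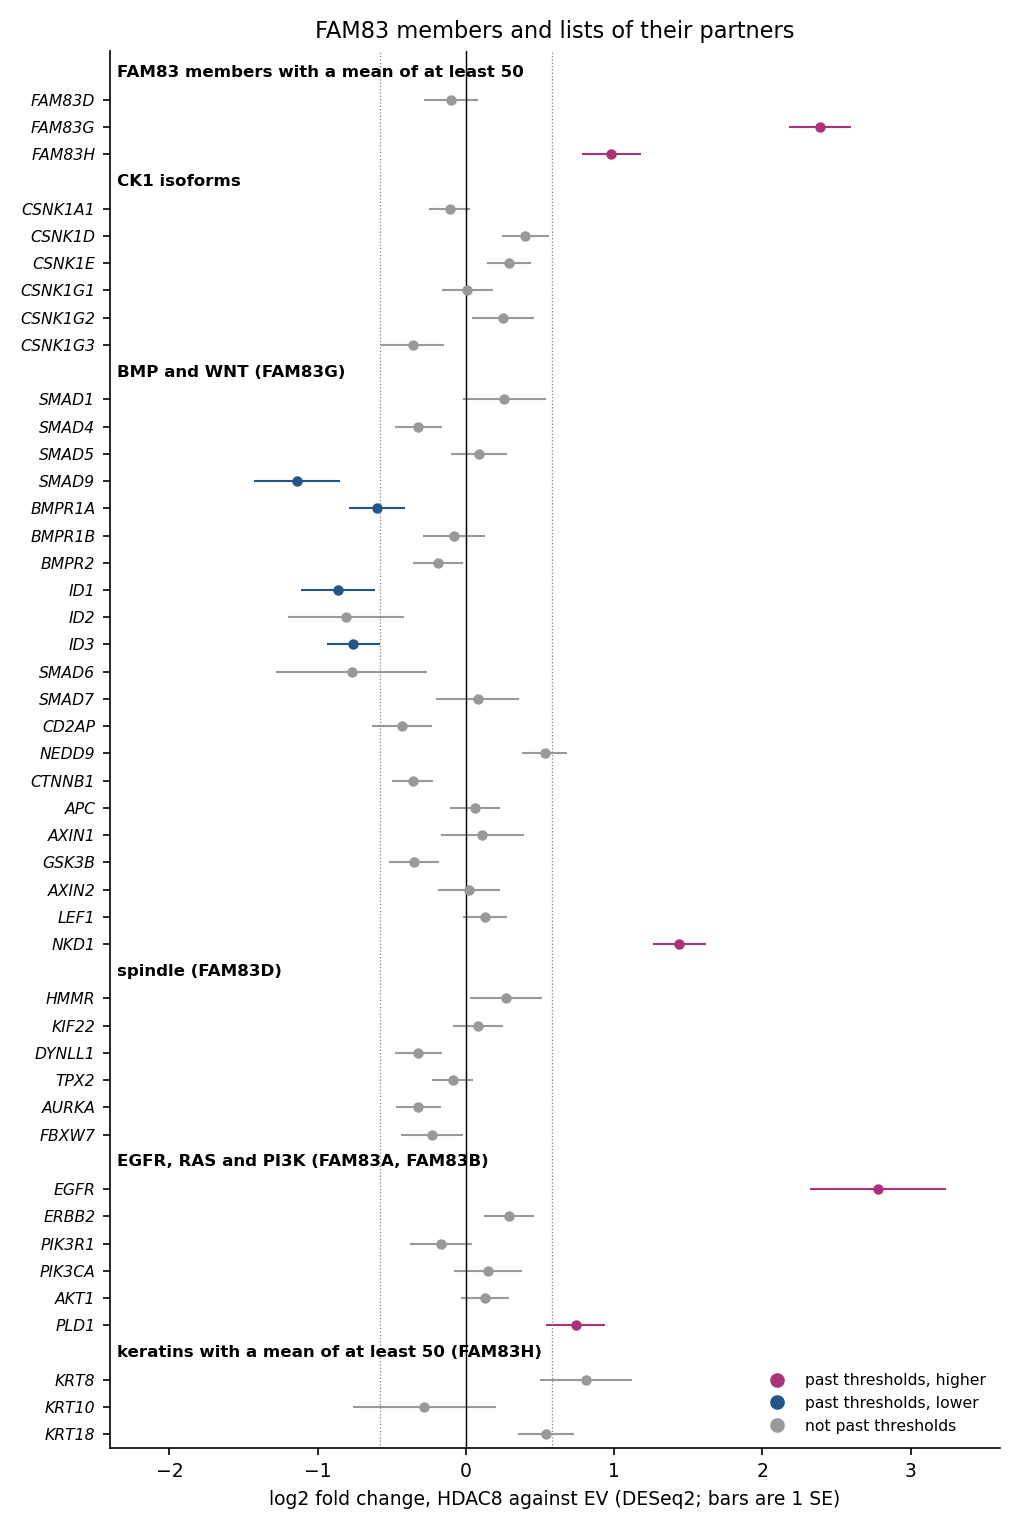
DESeq2 log2 fold change of HDAC8 against EV libraries for the 3 well-measured FAM83 genes and for genes of the partner lists described here, keratins only where their mean was at least 50, with bars of 1 SE, dotted lines at the fold minimum of 0.58 and colours for genes past both thresholds. Among the genes plotted, EGFR (2.78), FAM83G (2.39) and NKD1 (1.44) lie farthest to the right and SMAD9 (-1.14) farthest to the left.

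Several FAM83 genes are known from epithelia, so epithelial markers were examined beside them. Of 10 markers, 7 had enough counts, 2 were called higher and 1 lower, beside 5.57% and 5.44% of all genes with an adjusted p. CLDN4, a tight junction protein, rose from 132.1, 48.6 and 40.4 to 375.4, 224.3 and 349.6 normalized counts (2.10, DESeq2 adjusted p = 0.00118). KLF5 rose from a mean of 547.0 to 1066.6 (0.96, adjusted p = 0.00217), a call lost without HDAC8 replicate 3 (adjusted p = 0.0528). ELF3 had 40.9, 24.3 and 0.0 in EV and 0 in all HDAC8 libraries, where its call as lower (adjusted p = 0.0481) was lost in 7 of the 11 alternatives with a value, edgeR (0.107) and limma-voom (0.217) among them. CDH1, which encodes E-cadherin, had 82.8, 39.2 and 45.3 in EV and 29.1, 0.0 and 0.0 in HDAC8 libraries (adjusted p = 0.299). ESRP1, among the 3 highest of the list by level, had means of 249.3 and 259.3 (adjusted p = 0.977). The summed level of the 10 markers was 965.7 to 1197.9 in EV and 1440.0 to 1953.6 in HDAC8 libraries, with EPCAM at 0 throughout. KLF5 had the highest level of the list, and the median log2 fold change of the 7 with enough counts was -0.58. The part of these markers in the differences of FAM83G and FAM83H was not tested.

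Markers of other cell types were examined in the same way, and their part in the differences of FAM83G and FAM83H was not tested. DESeq2 called 5.57% of all genes with an adjusted p higher and 5.44% lower. The 4 leukocyte markers summed to 2286.1 to 3302.4 normalized counts in EV and 4273.0 to 6164.7 in HDAC8 libraries, nearly all of it CD68, which lysosomes of other cells also hold and which was called higher (means 2751.6 and 5219.6, DESeq2 adjusted p = 3.13e-05). CD3E was at 0 in EV and at 50.1 to 91.1 in HDAC8 libraries and was called higher too, and PTPRC did not exceed 2.6. The 5 fibroblast markers summed to 2488.9 to 2877.2 in EV and 1461.1 to 2423.5 in HDAC8 libraries, most of it LUM (means 2462.1 and 1629.4, adjusted p = 0.0778), with DCN at 0. PDGFRA was called higher (140.3 against 312.9, adjusted p = 0.0377), a call not made by edgeR or limma-voom. The 3 endothelial markers summed to 97.5 to 202.9 in EV and 114.3 to 218.0 in HDAC8 libraries, most of it VWF, and none was called by DESeq2, edgeR or limma-voom or had an unadjusted p under 0.05.

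Whether reads were counted by strand is not stated. Reads of a member and of a gene on its opposite strand may therefore be mixed where their exons share bases. SLC5A10 lies opposite FAM83G over 35976 bases and shares 529 exon bases with it. It had 0.0, 10.3 and 11.8 normalized counts in EV and 12.0, 15.4 and 15.2 in HDAC8 libraries (DESeq2 adjusted p = 0.853), levels far under those of FAM83G. IQANK1 lies opposite FAM83H over 4096 bases with 0 shared exon bases, and had means of 47.8 and 68.3 (adjusted p = 0.843). FAM83A-AS1, FAM83A-AS2 and FAM83C-AS1, antisense to the 2 members of their names, did not exceed 18.7 normalized counts, and SPACA4, overlapping FAM83E on the opposite strand, had means of 6.9 and 16.1 (adjusted p = 0.831).

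Of 28 genes that overlap or neighbour a member, 13 received an adjusted p, 2 were called higher and 0 lower. Of all genes with an adjusted p, 5.57% were called higher and 5.44% lower, and nothing is read from so small a count. PRPSAP2, 37502 bases from FAM83G, rose from a mean of 661.8 to 1071.3 normalized counts (0.69, DESeq2 adjusted p = 0.027), a call lost in 6 of 13 alternatives. GRAP, on the other side of FAM83G, was at 0 in 5 libraries and at 9.8 in HDAC8 replicate 3. SCRIB, 52686 bases from FAM83H, had 4034.0, 4895.7 and 3834.1 in EV and 9800.1, 5960.6 and 5315.2 in HDAC8 libraries (0.72, adjusted p = 0.0071). Its log2 fold change was 0.40 without HDAC8 replicate 1, and the call was also lost without EV replicate 1 (adjusted p = 0.0674) or EV replicate 3 (0.087). MAPK15, the nearest gene to FAM83H that does not overlap it, had means of 14.9 and 16.9 (adjusted p = 0.98).

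Neighbours of the other members were not called. RPL18, 252 bases from FAM83E, had means of 7853.0 and 9123.2 normalized counts (0.22, DESeq2 adjusted p = 0.468). EIF6, 746 bases from FAM83C, had 1785.4 and 2041.6 (0.19, adjusted p = 0.612), and UQCC1, on its other side, had 2096.4 and 1449.3 (-0.53, adjusted p = 0.0462), under the fold minimum. TNRC6B, next to FAM83F, had 13896.5 and 12156.7 (-0.19, adjusted p = 0.435), GRAP2 on its other side 154.5 and 162.1 (adjusted p = 0.97), and TBC1D31, next to FAM83A, 793.7 and 849.5 (0.10, adjusted p = 0.899). The nearest genes of FAM83B and FAM83D (HCRTR2, PPP1R16B and DHX35-DT among them) were at 0 in all libraries. DHX35-DT is a noncoding RNA gene 8819 bases from FAM83D, and genes farther out were not examined.

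**Figure D5:**
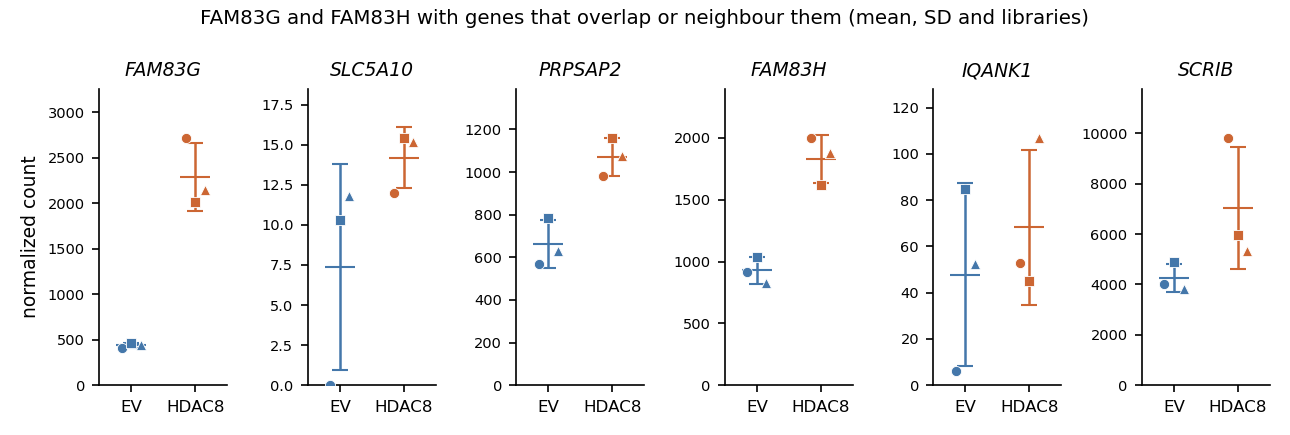
Normalized counts of FAM83G and FAM83H and of 4 genes that overlap or neighbour them, with the mean and SD of 3 libraries and a marker for each library, each panel on its own linear axis from 0. FAM83G and FAM83H separate by group, SLC5A10 (0.0 to 15.4) and IQANK1 (6.3 to 106.7) on the opposite strands stay far lower, and SCRIB is spread by HDAC8 replicate 1.

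Genes with a like pattern were looked for by the Euclidean distance of centred log2(normalized count + 1) over the 6 libraries, among 12222 other protein-coding genes with a mean of at least 50. Nearest to FAM83G were OPRD1, the delta opioid receptor, with means of 1865.8 in EV and 10152.9 in HDAC8 libraries (distance 0.156), SYNE3 (0.233) and NGFR, the low-affinity neurotrophin receptor, with means of 179.3 and 1059.1 (0.297). Nearest to FAM83H were PHLDB1 (0.135), CAPN5 (0.169) and CSF1 (0.187), and nearest to FAM83D were POLR2M (0.0624), LAPTM4A (0.0851) and ANKRD40 (0.0995). By Pearson correlation OPRD1 was again among the nearest 3 of FAM83G and POLR2M among those of FAM83D, and none was shared for FAM83H. With 6 libraries in 2 groups, any gene with a like difference between the groups comes out near, so the likeness is a description.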

How the data were processed

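RNA-seq of WM164 cells gave 3 EV and 3 HDAC8 libraries, grouped by the labels. The authors trimmed reads with Trimmomatic, aligned them with STAR and estimated reads per gene with RSEM, and deposited unscaled expected counts, which share ambiguous reads between genes. Genome build, annotation release and counting by strand are not given in the sources used here. Reads carry no molecular identifiers, so the floor of 3 counts covers counting error only.

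Expected counts were rounded and fitted in DESeq2 1.42.0 (R 4.3.3, Wald test, two-sided) with size factors of 0.918 to 1.17, over 26162 genes with a total of at least 10 counts. Benjamini-Hochberg adjustment covered all genes, and 5141 genes received no adjusted p. Calls needed an adjusted p under 0.05 and a log2 fold change past 0.58 in either direction, the levels in the study's methods. The legend of the study's RNA-seq figure gives an unadjusted p under 0.05 instead. Intervals are at the 95% level from the DESeq2 SE. Positions and lengths came from GENCODE release 44 (GRCh38), by Ensembl identifier, and promoters from RefSeq (GRCh38.p14).

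The members and gene lists were chosen with earlier results of these data known, the lists from general knowledge of each protein. Named genes are the members, HDAC8, the CK1 genes, called genes and the 3 highest of each other list, overlapping and neighbouring genes, and the 3 nearest genes by pattern. Some listed genes are not reported here. A few other list genes (SMAD1, SMAD6, SMAD7, ID2, AXIN2, NEDD9, HMMR, CDH1 and markers at or near 0) were named after their values were seen. Alternatives were the edgeR 4.0.16 quasi-likelihood test and limma 3.58.1 voom (both TMM), total-count size factors with and without mitochondrially encoded genes, no filter, a minimum of 10 counts in each library, a replicate block and leaving out single libraries, and the longest transcript for lengths and Pearson correlation for likeness. Only the main DESeq2 fit was tested on simulated data. Libraries of a group differed from each other beyond sampling noise (chi-square per degree of freedom 26 to 153).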

Additional observations from a re-analysis of the deposited data

How the results depend on the processing

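FAM83G, FAM83H, FAM83D and FAM83E moved by less than the spread between replicates in every alternative with a value, and FAM83G and FAM83H stayed past the thresholds in all 13. Values of the same libraries chose the family, so this describes the processing and is no test of the members. FAM83E, FAM83A, FAM83C and FAM83F have no value at a minimum of 10 counts in every library.

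The low members depended on single libraries. With each library left out in turn, the log2 fold change ran from -5.54 to -0.03 for FAM83A, from -0.79 to 4.42 for FAM83C and from -4.18 to -1.03 for FAM83F. Replicate numbers did not pair the libraries (correlation of the deviations of same-numbered libraries -0.0273, -0.0668 and 0.0397 over 14450 genes). With a replicate block FAM83C was at 3.37 and FAM83F at -3.30, and 1 neighbouring gene was called. Limma-voom also called 1 neighbouring gene, and leaving out libraries left 0 to 2, with 0 without EV replicate 1 or EV replicate 3.

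Epithelial markers called ran from 1 (without HDAC8 replicate 3) to 3 and genes called lower from 753 (without EV replicate 3) to 1386 over the libraries left out. CK1 genes called stayed at 0, and partner genes called ran from 6 to 10 around 8 of 45 when libraries were left out. With all 6 libraries, DESeq2 called 11.0% of all genes with an adjusted p. CSNK1G1, at 0.01, was -0.01 with limma-voom, -0.02 with total-count scaling without mitochondrially encoded genes and -0.07 to 0.10 with libraries left out, so it has no direction. Depth limits FAM83A, FAM83B, FAM83C, FAM83E and FAM83F, whose counts did not exceed 101 in any library, and 3 libraries per group limit the rest. The causes of these shifts were not tested.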
